A study of Mus musculus with 12 samples.

Results

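The cytosolic ribosomal protein genes were described across 12 RNA-seq libraries of mouse iNKT1 cells, the T-bet-dependent subset of invariant natural killer T cells, which recognise lipids on CD1d (T-bet is the transcription factor encoded by Tbx21). Members were all rows whose mouse symbol starts with Rpl or Rps followed by a digit, or is Rpsa, Rplp0, Rplp1 or Rplp2. The 74 rows named as pseudogenes (-ps) and the 8 Rps6k kinase rows were left out. This gave 85 of the 14004 genes in the table, namely 42 proteins of the large subunit, 31 of the small subunit, 3 of the stalk, and 9 rows that are paralogs, retrocopies or not ribosomal proteins. The first 76 are called core genes below. No row matched Rpl24.

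The cells had been selected for binding of CD1d tetramer and for YFP, in thymus and in liver, and each of the 4 groups held 3 libraries. Control mice had Tbx21Cre and Rosa26-YFP+, so both genotypes expressed the Cre and the reporter. The knockout mice (cKO) had Tbx21Cre and Rosa26-YFP+ as well, together with the floxed alleles Ets1F/F. Cre is driven by Tbx21, and Ets1 is therefore lost only in cells that have expressed Tbx21. The labels give no age or treatment. They do not say whether the libraries of a group came from separate mice, so the spread behind each p-value is that between these samples and may be technical. Values are the authors' deposited values, a signal adjusted for library size, and fold changes are on the scale of log2(value + 1), tested with limma in 1 model over all 12 libraries (± SE; p-values adjusted by Benjamini-Hochberg over all genes tested).

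Outside the stalk, each ribosomal protein is needed in equal number in every ribosome. The large subunit holds the peptidyl transferase centre while the small subunit decodes the mRNA. The mRNAs of these genes belong to the TOP class: they begin with a C followed by a run of pyrimidines, through which mTORC1 and Larp1 control their translation. T cells make more ribosomes when they are activated and grow, and the member Rpl22 is needed for the development of alpha-beta T cells.

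Many of these genes have processed copies elsewhere in the genome, and reads from the parent and the copy can be hard to tell apart. Cut into all windows of 50 bases, the transcripts of the 85 members shared a median of 24.0% of windows with another gene of the annotation. In 27 members the share was over 30%, in 8 it was at least 60%, and in Rps19bp1 it was 0. The other gene can be an overlapping neighbour as well as a copy, on either strand. For Rpl35 the share was 84.0% with any gene and 21.8% with pseudogenes. How reads from shared windows were counted is not stated, so values of close copies are uncertain. The first 60 coding bases of some members are shown because they bear on the results below. They are read 5′ to 3′ from the GENCODE M21 transcripts of GRCm38, with the position and strand of the gene. Capitals mark the bases of a copy that differ from the sequence on the line before.
Rps16, chr7:28350652-28353155, + strand: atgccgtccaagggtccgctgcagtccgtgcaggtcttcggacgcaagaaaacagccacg
Rps16-ps2, chr5:129128077-129128517, − strand: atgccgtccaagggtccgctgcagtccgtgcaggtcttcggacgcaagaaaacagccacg
Rps27, chr3:90212522-90213651, − strand: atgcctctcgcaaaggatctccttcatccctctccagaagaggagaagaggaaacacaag
Rps27l, chr9:66946086-66949516, + strand: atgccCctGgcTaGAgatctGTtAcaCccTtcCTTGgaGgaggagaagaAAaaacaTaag
Rpl36a, chrX:134585654-134588062, + strand: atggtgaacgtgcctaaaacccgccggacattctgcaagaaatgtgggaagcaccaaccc
Rpl36al, chr12:69182731-69184083, − strand: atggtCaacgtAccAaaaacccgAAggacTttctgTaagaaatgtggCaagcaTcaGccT

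The pseudogene Rps16-ps2 was identical to Rps16 over all 438 coding bases. Rps27 and its retrocopy Rps27rt were identical over all 252. Older paralogs could be told apart: Rps27l matched Rps27 at 76.7% of aligned coding positions, Rpl22l1 matched Rpl22 at 69.6% and Rpl36al matched Rpl36a at 87.7%. The rows Rpl37rt, Rps3a2 and Rps3a3 are processed pseudogenes in the annotation, with 1, 4 and 9 mismatches against Rpl37 (291 bases) and Rps3a1 (792 bases).

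Ets1 values were 23692, 28051 and 19493 in control thymus against 11817, 7069 and 5788 in cKO thymus, and 18773, 18528 and 15910 in control liver against 3594, 4425 and 5787 in cKO liver. The genotype difference was −1.58 ± 0.27 in thymus (adjusted p = 0.0095) and −1.97 ± 0.27 in liver (adjusted p = 0.0012), and the groups did not overlap in either tissue. The thymus p-value was 0.071 without cKO thymus library 3, 0.095 with only the thymus libraries in the model and 0.4 without control thymus libraries 1 and 2. Whole reads were recovered from the deposited values. They came to 18.5 to 43.4 M (megareads) in 10 libraries, to 3.87 M in control liver library 3 and to 3.21 M in cKO liver library 2. The fewest reads behind a core gene in any library were 104. All 9 of 9 iNKT1 markers were in the table, and they summed to 0.317% of control thymus library 2 and to 0.508 to 0.713% of the other 11 libraries. Of the markers of other cells, immature thymocyte genes (6 of 8 in the table) summed to 0.000512 to 0.00605% in control thymus and 0.00971 to 0.0152% in cKO thymus. Their sum was higher in liver, at 0.0162 to 0.0252% in control and 0.0221 to 0.0298% in cKO libraries. Yet Rag1 and Dntt were under 10 in every liver library. In thymus, NK or ILC1 genes (5 of 5, with Ncr1 under 0.5 in every library) summed to 0.0107 to 0.027% in control and 0.00291 to 0.00475% in cKO libraries. In liver, B cell genes (5 of 7) summed to 0.0234 to 0.0294% in control and 0.00508 to 0.0078% in cKO libraries. Their part in the results was not tested.

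The members made up 1.64, 2.56 and 2.46% of the deposited total in control thymus and 1.10, 1.94 and 2.04% in cKO thymus. In liver they made up 1.77, 2.20 and 2.55% of the control libraries and 1.73, 2.43 and 2.31% of the cKO libraries. The group means were 2.22% ± 0.502 (SD, n = 3) for control and 1.69% ± 0.519 for cKO cells of the thymus, and 2.17% ± 0.394 and 2.16% ± 0.375 for those of the liver. The groups overlapped in both tissues. In bulk samples, fewer cells with a high level and less RNA per cell cannot be told apart.

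Within the thymus, 2 libraries stood apart, and they lay at opposite ends of the genotype comparison. cKO thymus library 1 was the lowest of the 12 libraries for 64 of the 85 members, against 9.56% of all genes tested. Control thymus library 2 was the highest for 54 members, against 15.8% of all genes. The median core gene lay 0.97 below its own 12-library mean (log2) in the first and 0.71 above it in the second, while the other 10 libraries had medians of −0.17 to 0.29. Control thymus library 2 also differed in makeup: its large-subunit total was 1.07 times its small-subunit total, against 1.31 to 1.56 in the other 11 libraries. It also had the lowest sum of iNKT1 markers (0.317%, given above). Its share of mitochondrial rRNA was 34.2%, the top of a range that began at 23.2%, and 24.7% was measured in cKO thymus library 1. Rows named as pseudogenes summed to 16035 in control thymus library 2, against 3709 to 9069 elsewhere. The part of these features in the results was not tested. The members' median genotype difference in thymus, and the median of its difference from liver, are given below with and without these libraries. Most single genes are given with all libraries only.

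**Figure D1:**
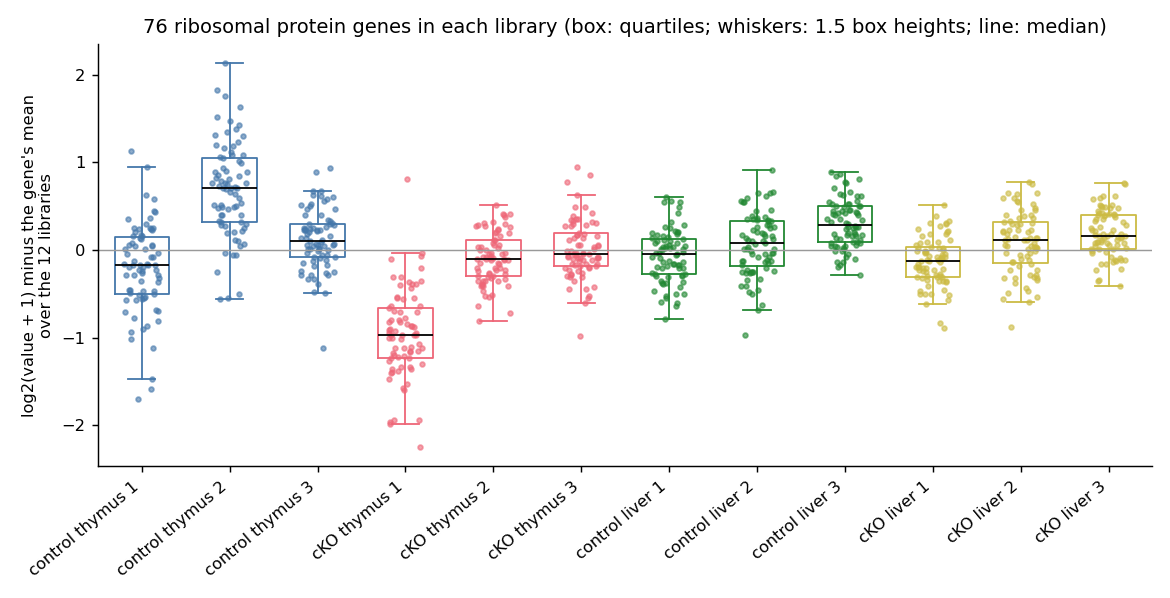
For each of the 12 libraries, the log2(value + 1) of each of 76 ribosomal protein genes minus that gene's mean over the 12 libraries; each point is 1 gene and boxes give the quartiles with the median as a line. The medians were 0.71 in control thymus library 2 and −0.97 in cKO thymus library 1, and −0.17 to 0.29 in the other 10.

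**Figure D2:**
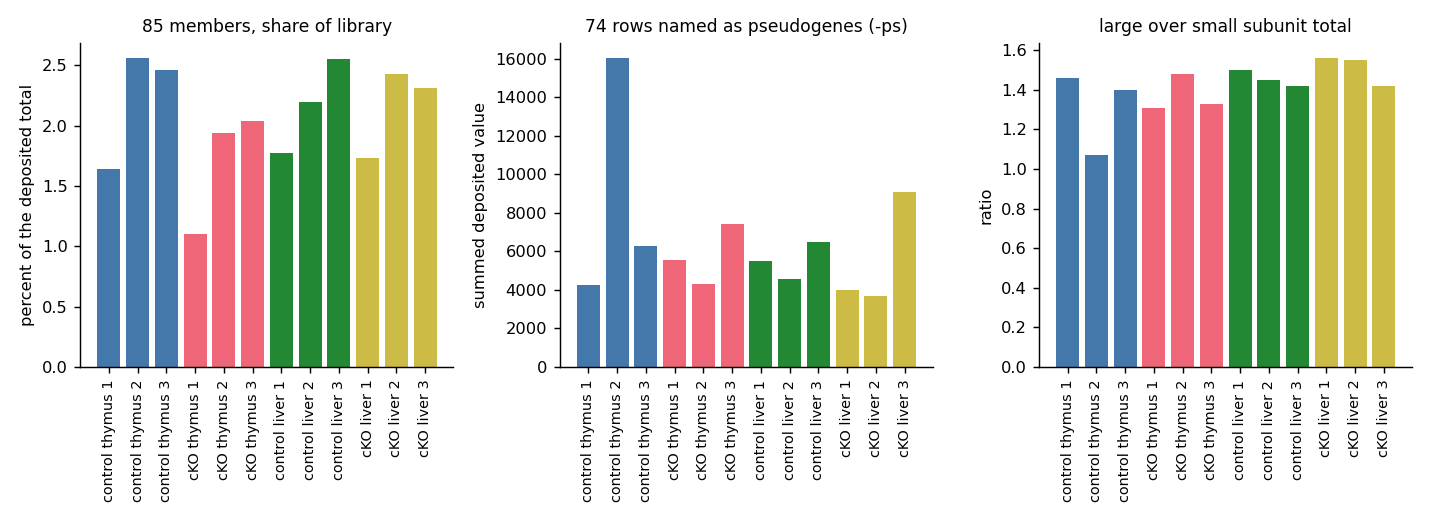
Bars by library, each starting at 0: the members' share of the deposited total in percent (left), the summed deposited value of the 74 rows named as pseudogenes (middle) and the ratio of the large-subunit to the small-subunit total (right). Control thymus library 2 had the highest pseudogene sum (16035) and the lowest ratio (1.07).

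Divided by exon length, the level of the core genes spanned 31.7-fold, with a median of 3093 per kb over the 12 libraries. The highest level per kb was that of Rpl4 (17466), a large-subunit protein that lines part of the exit tunnel, followed by Rpl32 (14074), Rps27 (11655), Rps15 (10627), whose tail reaches the decoding centre, and Rplp1 (9843). The lowest core gene was Rps19 (551 per kb). Below it lay only rows outside the core, namely Rpl22l1 (524), Rps19bp1 (186), Rpl7l1 (152), Rps3a2 (61.7) and Rps3a3 (19.1). The high members were high in every group. In thymus Rpl32 had 9922, 20982 and 18230 in control and 4294, 15568 and 12408 in cKO cells, and in liver 11584, 12357 and 15135 against 13571, 13232 and 15350. Rps15 had 5493, 14154 and 5083 in control against 2409, 4682 and 7600 in cKO thymus, and 5822, 7382 and 6892 against 5040, 8861 and 6919 in liver. Exon length is the union of all annotated exons, so a gene with long unused exons has its level per kb understated.

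**Figure D3:**
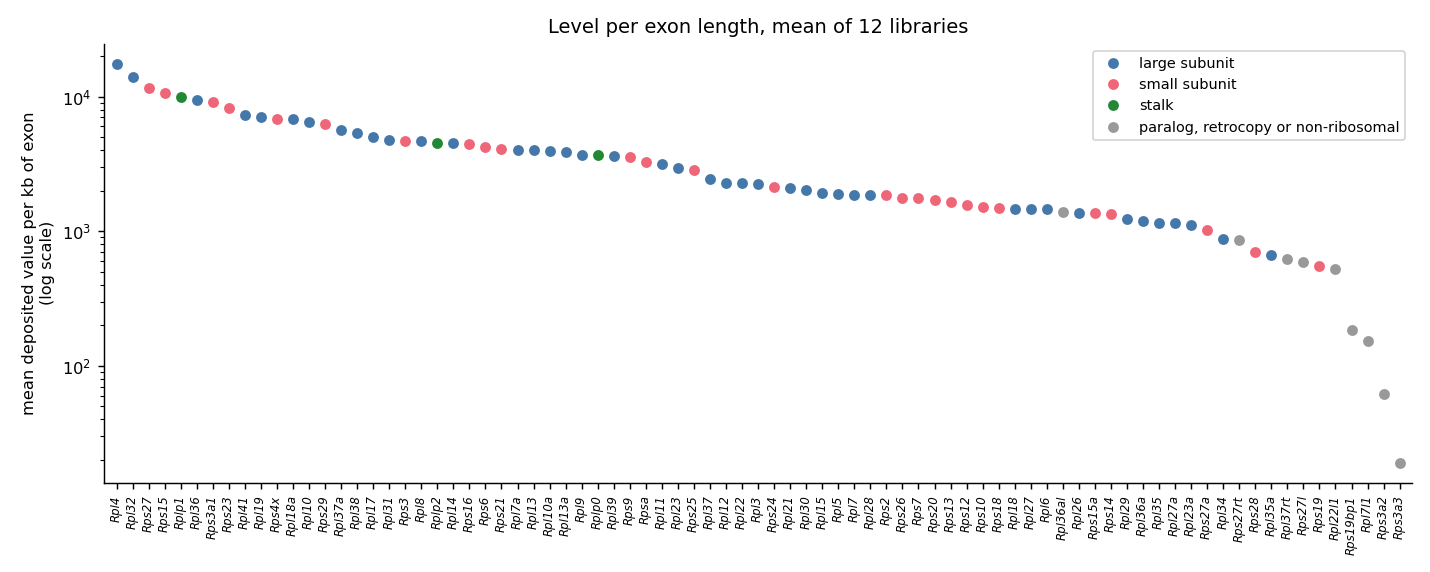
The mean deposited value per kb of exon over the 12 libraries (log axis) for 81 of the members in falling order, coloured by subunit. The scale runs from 17466 for Rpl4 to 19.1 for Rps3a3, and the 5 lowest points are paralogs, retrocopies or Rps19bp1, which is not a ribosomal protein.

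Replicates of a group differed by a median SD of 0.48 (log2) for the 85 members. The same SD had a median of 1.33 over all genes tested and of 0.56 over the 3902 genes with a mean of at least 1000, a level that 77 members reached. Among the steadiest members were Rpl30 (SD 0.21) and Rpl7 (0.22). The least steady were Rpl7l1 (1.46), Rps19bp1 (1.41) and Rps3a3 (1.35), and among core genes Rps12 (0.98) and Rps14 (0.91). The value of Rps12 was 900, 9076 and 2721 in control thymus.

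In thymus, 1 of the 85 members passed the threshold between the genotypes: Rps16, a small-subunit protein whose tail contacts the tRNA in the P site, fell in cKO cells. Over all genes tested, 83 (0.636%) passed, 41 higher and 42 lower. Rps16 had values of 10929, 7003 and 9569 in control thymus and 1652, 4123 and 2537 in cKO thymus. Every cKO library lay below every control library, with the lowest value in cKO library 1. The means were 9167 ± 1994 (SD, n = 3) and 2770 ± 1252, and the difference was −1.80 ± 0.34 (limma, adjusted p = 0.017). edgeR's quasi-likelihood test (0.391% of all genes called, 0.276% lower) and DESeq2 (5.13% called) on recovered reads called it as well. Its identical copy Rps16-ps2, with values of 544, 383 and 332 in control thymus and 60.6, 214 and 140 in cKO thymus, had the same direction (−1.74 ± 0.94) but did not pass (limma, adjusted p = 0.44). The sequences of both are printed above, and 31.0% of the 50-base windows of Rps16 are also in the copy. The call was lost without control thymus library 1 (−1.66, adjusted p = 0.057), without cKO thymus library 1 (−1.48, adjusted p = 0.087) and without cKO thymus library 3 (−1.79, adjusted p = 0.071). With only the thymus libraries in the model the adjusted p was 0.18. Without control thymus library 2 and cKO thymus library 1, a setting chosen after seeing the data, it was 0.056 (−1.66, limma). Without control thymus libraries 1 and 2 the estimate was −1.89.

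The other members had mostly lower estimates in cKO thymus without passing the threshold. Their median difference was −0.60, against 0.24 over all genes tested, and 9 of 85 were above 0, against 57.7% of all genes. By group the medians were −0.54 for the large subunit, −0.65 for the small subunit, −0.80 for the stalk and −0.51 for the remaining 9 rows. At an unadjusted p under 0.05 there were 16 members, all lower in cKO, and 1728 of all 13058 genes (13.2%). Of the members, 17 had cKO libraries wholly below the control libraries and 0 wholly above, where 6.89% and 7.60% of all genes did so. The members' median was −0.22 without cKO thymus library 1 and −0.31 without control thymus library 2. Without both it was 0.02, with 48 of 85 members above 0, and the median of all genes was 0.20. That last setting was chosen after seeing the data and leaves out the libraries in which these members were lowest and highest, so it had to raise the median. Scaling moved the median too, since rescaling by TMM factors put the median of all genes at 0.00 and that of the members at −0.86. TMM rescaling called 4 members lower (Rps16, Rps27, Rpl4 and Rpl37a; 0.613% of all genes were called lower), and DESeq2 called 6, these 4 with Rpl7 and Rpl8, where it called 2.74% of all genes lower.

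Among small-subunit proteins, the next lowest estimate after Rps16 was that of Rps27, a zinc-finger protein. Its values were 14232, 30594 and 16847 in control thymus and 6261, 10748 and 10504 in cKO thymus, so that the groups did not overlap. The difference was −1.13 ± 0.30 and missed the threshold (limma, adjusted p = 0.097). Rpsa, also known as the laminin receptor, had 10122, 18651 and 13249 against 5869, 8311 and 9615 (−0.80 ± 0.27, limma adjusted p = 0.19), again without overlap. Rps6, the substrate of the S6 kinases, had 7059, 11595 and 6690 against 3975, 5977 and 5699 (−0.67 ± 0.29, limma adjusted p = 0.32). Rps27a, made as a fusion with ubiquitin, had 1345, 4635 and 1527 against 1000, 1490 and 1632, and here the groups overlapped (−0.66 ± 0.48, limma adjusted p = 0.58). Control thymus library 2 held the highest control value of each of these genes, unlike in Rps16, where it held the lowest.

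Among large-subunit proteins, Rpl8, which sits next to the peptidyl transferase centre, had 11516, 5812 and 9469 in control thymus and 3046, 5606 and 4077 in cKO thymus. The groups were separate by a narrow gap, and the difference was −1.06 ± 0.32 (limma, adjusted p = 0.14). Rpl22, the RNA-binding member named above, had 7322, 12908 and 9004 against 3088, 5344 and 6466 (−1.0 ± 0.31, limma adjusted p = 0.16). Rpl37a, a zinc-finger protein, had 9835, 12704 and 9511 against 3934, 6588 and 6223 (−0.96 ± 0.26, limma adjusted p = 0.11). In both genes all cKO libraries were below all control libraries. Rpl4 had 41867, 45209 and 47197 against 19594, 31775 and 27810. Its controls were close together, its standard error was small, and at −0.79 ± 0.19 its adjusted p of 0.069 (limma) was the lowest of the members after Rps16. The highest large-subunit estimates were near 0. Rpl35, at the tunnel exit, overlaps the gene Wdr38, which holds 56.8% of its windows. It had 715, 2823 and 1122 in control against 1074, 1610 and 1877 in cKO thymus (0.17 ± 0.54, limma adjusted p = 0.92). Rpl27 had 639, 3522 and 1960 against 1435, 2124 and 1947 (0.14 ± 0.51, limma adjusted p = 0.94). Rpl35a had 1892, 2641 and 2464 against 1861, 3280 and 2535 (0.11 ± 0.38, limma adjusted p = 0.93). All 3 had estimates below 0 under TMM rescaling.

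The stalk proteins recruit the elongation factors, with Rplp0 as the anchor for the dimers of Rplp1 and Rplp2. Rplp1 had 5147, 6352 and 8537 in control thymus and 1827, 5261 and 3198 in cKO thymus (−1.06 ± 0.36, limma adjusted p = 0.20), and cKO library 2 passed the lowest control. Rplp2 had 13410, 8587 and 13821 against 5081, 8431 and 6987 (−0.80 ± 0.28, limma adjusted p = 0.21), with a narrow gap between the nearest libraries. Rplp0 had 5889, 9126 and 6448 against 2602, 6189 and 5516 (−0.65 ± 0.33, limma adjusted p = 0.40), with overlap. None of the 3 stalk genes passed.

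**Figure D4:**
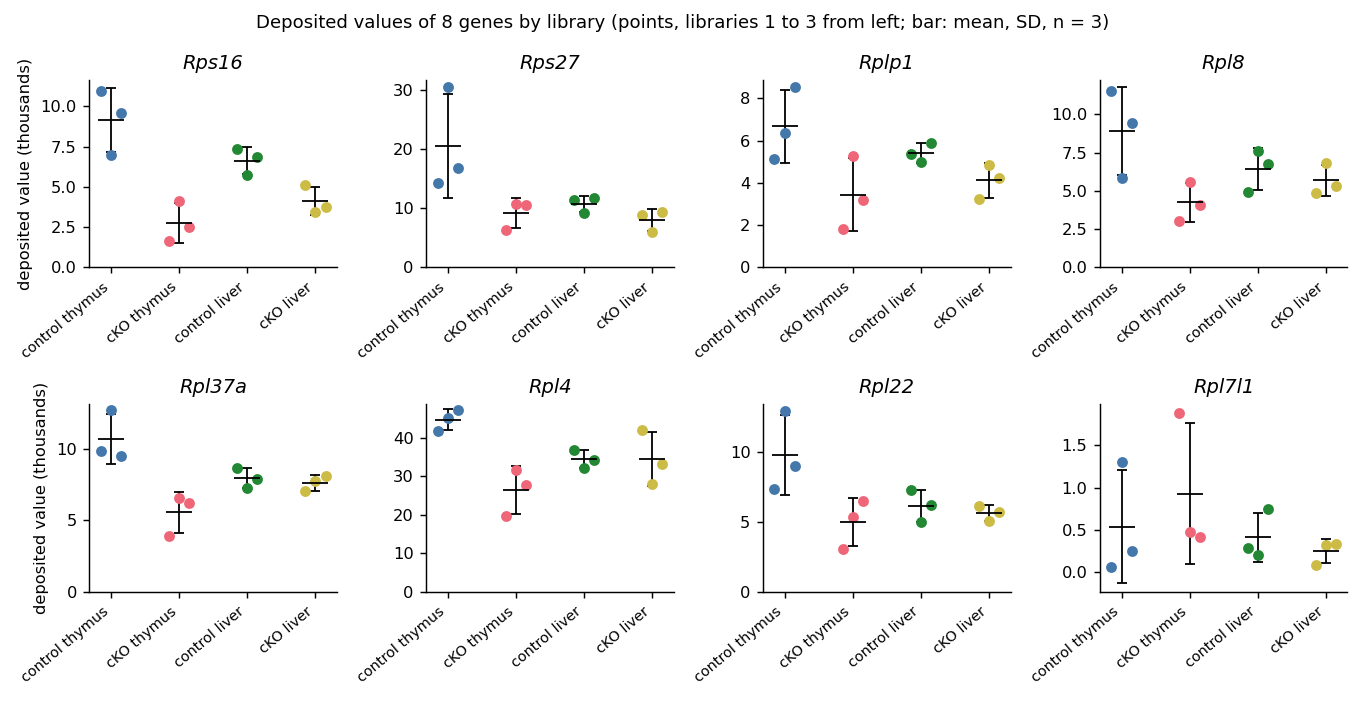
Deposited values divided by 1000 for 8 genes, with 1 panel each; points are libraries 1 to 3 from left to right in each of the 4 groups, and the bar gives the mean with its SD (n = 3). Rps16 and Rps27 are lower in all 3 cKO thymus libraries than in any control thymus library, and Rpl7l1 overlaps between the genotypes.

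In liver, 0 of the 85 members passed (limma), while 66 of all genes (0.505%) did. At an unadjusted p under 0.05 there were also 0 members, against 6.92% of all genes. edgeR and DESeq2 called 0 members, where they called 0.299% and 2.17% of all genes, 0.13% and 1.17% lower. The members' median was −0.07, against 0.02 over all genes, and 32 of 85 were above 0, against 51.5% of all genes. The cKO libraries lay wholly above the controls for 5 members and wholly below for 8, where 9.99% and 8.66% of all genes did so. Rps16 was among those 8, with 7315, 5716 and 6838 in control liver and 5124, 3452 and 3771 in cKO liver (−0.70 ± 0.34, limma adjusted p = 0.73). Rps16-ps2 had 290, 221 and 243 against 270, 181 and 164, with overlap.

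The lowest core estimates in liver after Rps16 were those of Rpl12, at the base of the stalk, and Rpl7. Rpl12 had 6572, 11812 and 13081 in control and 5063, 8262 and 7984 in cKO liver (−0.53 ± 0.41, limma adjusted p = 0.98), with overlap. Rpl7 had 6806, 5064 and 6014 against 4694, 3858 and 4558, with no overlap (−0.44 ± 0.29, limma adjusted p = 0.92). Among the highest core estimates were those of Rpl31, at the rim of the exit tunnel, and Rpl41, the smallest ribosomal protein. Rpl31 had 5945, 4738 and 7105 against 8303, 8095 and 10966 (0.63 ± 0.38, limma adjusted p = 0.88). Rpl41 had 6299, 5070 and 7093 against 9979, 8795 and 9007 (0.60 ± 0.34, limma adjusted p = 0.84), and in both genes all cKO libraries were above all controls.

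**Figure D5:**
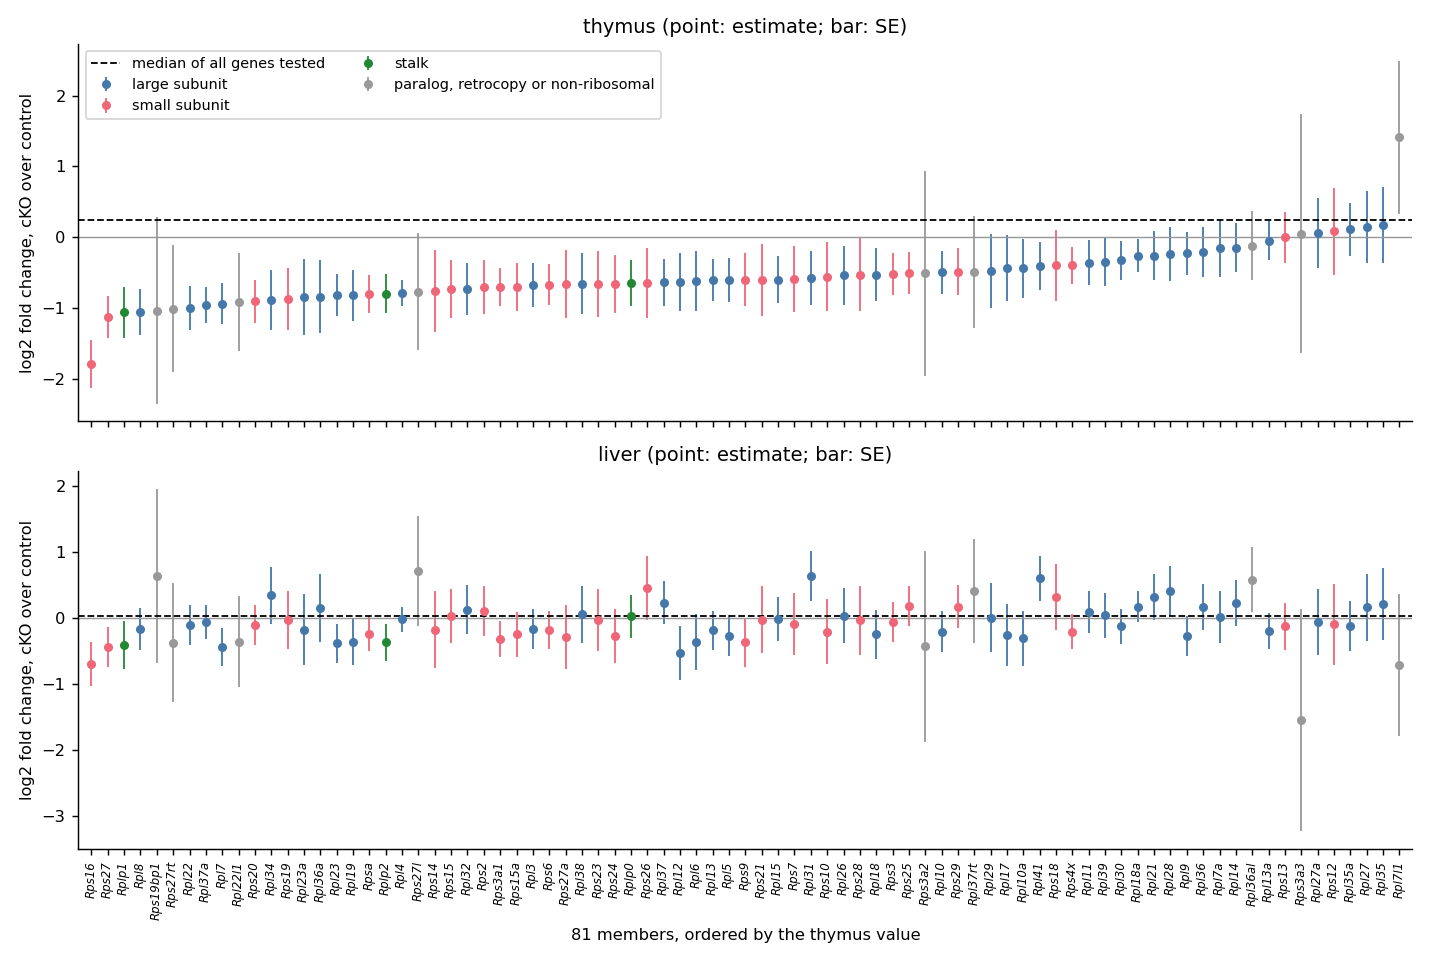
The log2 fold change of cKO over control with its SE for 81 of the members in thymus (top) and liver (bottom), in the order of the thymus value; the dashed line is the median of all genes tested. In thymus 73 of the 81 points lie below 0, and in liver 51.

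Over both tissues together, 1 member passed, Rps16 (−1.25 ± 0.24, limma, adjusted p = 0.0073), where 297 of all genes (2.27%) did. It was lower in the mean of the cKO libraries in each tissue. The call was lost without the 2 liver libraries under 5 M reads (−1.18, adjusted p = 0.076). After it came Rps27 (−0.78 ± 0.21, limma adjusted p = 0.06), Rpl7 (−0.69 ± 0.20, adjusted p = 0.085) and Rplp1 (−0.74 ± 0.25, adjusted p = 0.16). In liver Rps27 had 11452, 9264 and 11732 in control and 8845, 5991 and 9411 in cKO libraries, and Rplp1 had 5370, 4991 and 5905 against 3252, 4857 and 4242. Among core genes with positive estimates was Rpl35 (0.19 ± 0.38, limma adjusted p = 0.88). At an unadjusted p under 0.05 there were 14 of 85 members, against 13.7% of all genes. TMM rescaling called 4 members lower (1.59% of all genes) and median-of-ratios rescaling called 2 members (1.36%). DESeq2 called 3 lower, Rps16, Rps27 and Rpl7 (3.35% of all genes, and 6.27% in either direction), and edgeR 1, Rps16 (1.06%, and 1.94% in either direction).

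The genotype comparisons in thymus and in liver share no library, and their difference (liver minus thymus) was tested directly. 0 of 85 members passed (limma), where 1 of all genes did (0.00766%). At an unadjusted p under 0.05 there were 5 members, against 5.38% of all genes. edgeR and DESeq2 called 0 members, where they called 0.023% and 0.894% of all genes. The members' median difference was 0.50, against −0.20 over all genes, with 77 of 85 above 0, and without control thymus library 2 and cKO thymus library 1, the setting chosen after seeing the data, it was 0.01. The 5 members were Rpl31 (1.21 ± 0.54), Rps16 (1.10 ± 0.48), Rpl41 (1.01 ± 0.47), Rpl37a (0.91 ± 0.37) and Rpl4 (0.77 ± 0.27), with limma adjusted p-values of 0.91 to 0.92. Rpl31 had 5898, 17254 and 7280 in control thymus and 3666, 6340 and 9568 in cKO thymus, so its genotype estimate was −0.58 there and 0.63 in liver. Rpl34 had a like estimate of 1.23 ± 0.61 (limma, adjusted p = 0.93), from 2538, 5420 and 2506 in control against 1640, 1224 and 2719 in cKO thymus, and 1486, 1685 and 1945 in control and 1858, 1880 and 2855 in cKO liver. For Rps16 the test does not show that the thymus and liver effects differ. The lowest core estimates were small, namely Rpl35a (−0.23 ± 0.53), Rps12 (−0.18 ± 0.86) and Rpl13a (−0.15 ± 0.39), a gene that also hosts snoRNAs.

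The tissue comparisons use the same libraries as the genotype comparisons and are given side by side with them. Between the tissues in control cells, 0 members passed (limma), against 79 of all genes (0.605%). There were 5 members with an unadjusted p under 0.05, against 12.7% of all genes. edgeR and DESeq2 called 0 members, where they called 0.375% and 3.89% of all genes. The members' median of liver over thymus was −0.14, against 0.28 over all genes. Liver libraries lay wholly below thymus for 9 members and wholly above for 2, where 5.83% and 9.55% of all genes did so. Among the 9 was Rps20, with 8693, 17337 and 7454 in thymus and 6581, 4627 and 6002 in liver (−0.87 ± 0.31, limma adjusted p = 0.25). Rps27 (−0.85 ± 0.30, limma adjusted p = 0.23) and Rpl34 (−0.94 ± 0.43, limma adjusted p = 0.37) were among them too, from the values given above. The opposite order was seen in Rpl10a, of the mobile L1 stalk, with 4994, 9202 and 9812 in thymus and 10677, 12788 and 15958 in liver (0.76 ± 0.42, limma adjusted p = 0.46). Rpl6 had 3638, 2953 and 5484 against 6153, 6294 and 6504 (0.70 ± 0.42, limma adjusted p = 0.51), and in both genes the tissues did not overlap. Rps13 had 3693, 2901 and 3976 against 3065, 6627 and 7564 (0.62 ± 0.36), and Rpl27a had 1513, 3547 and 2586 against 2525, 3647 and 4730 (0.55 ± 0.50), both with overlap.

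Between the tissues in cKO cells, 0 members passed (limma), against 29 of all genes (0.222%). Again 5 members had an unadjusted p under 0.05, against 7.6% of all genes. edgeR and DESeq2 called 0 members, where they called 0.138% and 2.18% of all genes. The median was 0.40, against 0.09 over all genes, with 69 members above 0. Liver libraries lay wholly above thymus for 10 members and wholly below for 1, where 8.81% and 7.26% of all genes did so. Among the highest core estimates were those of the large-subunit proteins Rpl6, Rpl10a and Rpl15. Rpl15 had 2313, 3942 and 2980 in cKO thymus and 4217, 6243 and 6471 in cKO liver (0.88 ± 0.33, limma adjusted p = 0.46). Rpl6 had 1052, 4223 and 3629 against 4227, 5150 and 5314 (0.95 ± 0.42, limma adjusted p = 0.61), and Rpl10a 2288, 10138 and 7829 against 8602, 12952 and 10271 (0.89 ± 0.42). In each of these 3 genes cKO thymus library 1 was the lowest of the 6 cKO libraries. Among the lowest core estimates was that of Rps3, at the mRNA entry channel (−0.31 ± 0.30, limma adjusted p = 0.91), which had 18434, 16786 and 23945 in cKO thymus and 15125, 14385 and 17856 in cKO liver.

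The 9 rows outside the core included the lowest means and the widest spreads of the members. Rpl36al and Rpl22l1 nevertheless had means above that of the core gene Rpl23a (946), and Rpl36al had an SD within groups of 0.58. By mean over the 12 libraries the 9 rows ran from 1892 (Rpl36al) and 1042 (Rpl22l1) through 530 (Rpl7l1), 483 (Rps27l), 469 (Rpl37rt), 320 (Rps27rt) and 201 (Rps19bp1) to 48.8 (Rps3a2) and 15.2 (Rps3a3). None passed in any comparison (limma). Rpl7l1, a nucleolar relative of Rpl7, had the widest spread. Its thymus values were 58.3, 1302 and 253 for control and 1885, 474 and 414 for cKO cells, and its liver values were 280, 205 and 745 against 87.8, 321 and 334. Its thymus estimate was 1.41 ± 1.08 (limma, adjusted p = 0.60) and its liver estimate −0.72 ± 1.08, and the genotypes overlapped in both tissues.

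Rpl22l1, the paralog of Rpl22, had 827, 2017 and 1700 in control thymus and 227, 1324 and 1396 in cKO thymus, and 1131, 691 and 933 in control and 886, 394 and 977 in cKO liver. Its thymus estimate (−0.92 ± 0.69) had the sign of that of Rpl22 (−1.0 ± 0.31). The control thymus values of Rps27l, a p53 target, were 448, 992 and 242, those of cKO thymus 113, 756 and 251, those of control liver 284, 419 and 419, and those of cKO liver 736, 414 and 720. Its estimates were −0.77 ± 0.83 and 0.71 ± 0.83, and the difference between them (1.48 ± 1.18) did not pass. Rpl36al had 1410, 4159 and 1087, then 1447, 1810 and 1881, then 1135, 1326 and 1939, then 1675, 2159 and 2671, in the same order of groups. These paralogs overlapped between the genotypes in both tissues.

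Rps19bp1 encodes a regulator of Sirt1 that binds Rps19 and is not a ribosomal protein. Its thymus values were 49.4, 632 and 494 for control and 283, 50.4 and 122 for cKO cells, and its liver values were 136, 91.8 and 43.6 against 58.9, 351 and 101. Single libraries thus differed by more than 10-fold within a group. The retrocopies Rps27rt and Rpl37rt were highest in control thymus library 2 (822 and 1044). The other control thymus libraries had 372 and 436 of Rps27rt and 498 and 371 of Rpl37rt. cKO thymus had 169, 272 and 351 of Rps27rt, which did not overlap with its controls, and 362, 278 and 687 of Rpl37rt. In liver Rps27rt had 285, 241 and 201 in control and 161, 88 and 436 in cKO libraries, and Rpl37rt had 274, 293 and 346 against 247, 281 and 944. Rps3a2 ran from 27.7 to 88.5 and Rps3a3 from 0.799 to 39.9 over the 12 libraries, which leaves few reads for a comparison. As copies nearly identical to their parents, these 4 rows may hold reads of Rps27, Rpl37 and Rps3a1.

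Promoters were read from RefSeq on GRCm38.p6, 250 bases before to 50 bases after each start, and 63 of the 85 members matched (56 of the 76 core genes). Proteins of the ETS family, to which Ets1 belongs, bind sites around the letters GGAA, and the 7-letter string CCGGAAG was searched on both strands. It was in the promoter of 24 of 56 core genes (42.9%), against 9.93% of the 27025 genes with a promoter of the same length and 21.8% of the 9070 of these that were tested here. A C followed by at least 7 pyrimidines was searched on the sense strand within 25 bases of the start, and 30 of 56 core genes held it (53.6%), against 17.7% of all and 18.8% of tested genes. The string CTTTCC, searched in the same window and in part overlapping those runs, was in 10 of 56 (17.9%), against 2.92% and 3.03%. A match describes letters, not a bound site, and no binding was measured in these libraries.

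The next lines show 100 bases around the start, 90 before it and 10 from it, for Rps16, the member that passed, and for members with a match near the start. Capitals mark CCGGAAG on either strand.
Rps16, chr7:28350599-28350698, + strand: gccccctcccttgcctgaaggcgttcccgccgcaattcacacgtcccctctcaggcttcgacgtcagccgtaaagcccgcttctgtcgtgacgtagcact
Rps21, chr2:180257289-180257388, + strand: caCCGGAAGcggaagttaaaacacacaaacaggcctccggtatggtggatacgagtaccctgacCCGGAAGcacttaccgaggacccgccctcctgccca
Rpl38, chr11:114668490-114668589, + strand: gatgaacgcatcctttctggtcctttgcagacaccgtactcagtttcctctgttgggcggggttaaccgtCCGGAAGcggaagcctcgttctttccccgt
Rpl37, chr15:5116523-5116622, + strand: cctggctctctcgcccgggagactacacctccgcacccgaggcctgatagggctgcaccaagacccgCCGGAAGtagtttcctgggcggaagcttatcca
Rps3a1, chr3:86142659-86142758, − strand: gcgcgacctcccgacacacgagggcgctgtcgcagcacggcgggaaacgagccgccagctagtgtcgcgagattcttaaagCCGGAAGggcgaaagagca
Rps7, chr12:28635944-28636043, − strand: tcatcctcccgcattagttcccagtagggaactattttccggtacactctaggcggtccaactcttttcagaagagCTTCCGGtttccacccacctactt

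The letters CCGGAAG were not in the window of Rps16, and this says only that. Core genes with a match had a median thymus difference of −0.60 (24 genes, from −0.89 to 0.17), and those without had −0.61 (32 genes, from −1.80 to 0.14). Genes without a match can still hold GGAA in other contexts, as the Rps27 line below does. The 2 classes are therefore not genes with and without ETS sites. Over all genes tested the medians were 0.20 with and 0.24 without a match. In liver the core medians were 0.04 and −0.13. With a pyrimidine run within 25 bases of the start the thymus median was −0.57 (30 genes), and without one it was −0.64 (26 genes).

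Pyrimidine runs within 25 bases of the RefSeq start are shown for Rps27, Rpl4, Rps6 and Rpl35, which are described above, beside Rps16 and Rpl22. The run of Rpl4 ends before that start. In Rps16 and Rpl22 no run was found within 25 bases of the RefSeq start. For Rps16 this depends on the start used, since its GENCODE gene start (chr7:28350652) lies before the bases shown here. The longer Rps16 line above holds the run cccctctc shortly before that GENCODE start, outside the window searched. The lines hold 25 bases before the start and 15 from it, and capitals mark the run.
Rps27, chr3:90213634-90213673, − strand: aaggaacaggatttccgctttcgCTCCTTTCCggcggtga
Rpl4, chr9:64173362-64173401, + strand: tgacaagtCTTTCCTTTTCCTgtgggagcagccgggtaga
Rps6, chr4:86857353-86857392, − strand: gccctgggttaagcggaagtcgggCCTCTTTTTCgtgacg
Rpl35, chr2:39005117-39005156, − strand: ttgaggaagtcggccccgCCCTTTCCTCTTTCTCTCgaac
Rps16, chr7:28350664-28350703, + strand: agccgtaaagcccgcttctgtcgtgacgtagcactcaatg
Rpl22, chr4:152325701-152325740, + strand: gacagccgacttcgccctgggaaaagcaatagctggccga

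Counts for other genes of the ribosome pathway in thymus are read against the shares of all genes called, 0.636% by limma, 0.391% by edgeR and 5.13% by DESeq2, and against 13.2% at an unadjusted p under 0.05. Of 21 translation elongation and other TOP genes, 0 passed in thymus (limma; 2 at an unadjusted p under 0.05, and 0 by edgeR and by DESeq2), with a median of −0.25. Their most abundant members were Eef1a1, which delivers tRNAs to the ribosome (−0.64 ± 0.19, limma adjusted p = 0.14), and the poly(A)-binding protein Pabpc1 (−0.18 ± 0.18, limma adjusted p = 0.69). TMM rescaling called Eef1a1 lower (−0.90, adjusted p = 0.031). The 3 genes fused to ubiquitin or a like protein gave 0 calls (limma; 0 at an unadjusted p under 0.05, and 0 by edgeR and by DESeq2). Among them were Rps27a, given above, and Fau (0.77 ± 0.56, limma adjusted p = 0.58), whose sign turned without control thymus library 1 (−0.05).

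Of 40 ribosome biogenesis genes, 38 were tested and 1 fell in thymus, Bysl, which takes part in small-subunit assembly. It had values of 1778, 2687 and 1073 in control thymus and 173, 121 and 270 in cKO thymus, with no overlap (−3.27 ± 0.65, limma adjusted p = 0.026). Without any 1 of 5 thymus libraries (all but control thymus library 3) its adjusted p was 0.056 to 0.08, with only the thymus libraries in the model it was 0.25, with library quality weights 0.2, without control thymus libraries 1 and 2 0.47, and without control thymus library 2 and cKO thymus library 1 0.16. In liver it had 479, 423 and 969 against 611, 660 and 697, with an estimate of 0.17 ± 0.65. The list's median was −0.42 in thymus, 7 genes had an unadjusted p under 0.05, edgeR called 1 (Bysl) and DESeq2 3 (Bysl, Nop2 and Rrp9).

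RNA polymerase I transcribes the ribosomal RNA precursor. Of its 14 genes 0 passed in thymus (limma; 3 at an unadjusted p under 0.05, and 0 by edgeR and by DESeq2), and the most abundant were Ubtf (1.17 ± 0.49, limma adjusted p = 0.30) and Polr1a (−0.67 ± 0.53). Of 24 tested mTORC1 and Myc regulators 0 passed (limma; 3 at an unadjusted p under 0.05, 0 by edgeR, and 3 by DESeq2, namely Deptor, Mlst8 and Myc). The most abundant of these were Pdcd4, an inhibitor of translation initiation (−0.38 ± 0.26), and Larp1, which binds TOP mRNAs (−0.38 ± 0.29, limma adjusted p = 0.60). Of 13 snoRNA host genes 8 were tested and 0 passed (limma; 1 at an unadjusted p under 0.05, and 0 by edgeR and by DESeq2), with Gas5 at −0.35 ± 0.32 and Rps3, a member, at −0.52 ± 0.30. In liver none of these lists had a call by limma, edgeR or DESeq2, which called 0.505%, 0.299% and 2.17% of all genes there. At an unadjusted p under 0.05 there were 4 genes in all, against 6.92% of all genes in liver.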

How the data were processed

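RNA-seq was done on 12 libraries of sorted iNKT1 cells, 3 in each of 4 groups, made from total RNA with the Nugen Ovation Ultralow system per the labels' protocols. The authors deposited 1 table of 14004 genes whose values are a signal adjusted for library size. Tools and build in the submitters' processing notes are HTSeq 0.6.1, DESeq2, STAR, TopHat2 2.1.0, Trimmomatic 0.33 and mm10, with no roles. Strand in counting is not stated. Deposited totals were 21.4 to 32.0 M per library. The values fitted whole reads after a quantile adjustment on the negative binomial (dispersion 1.38). Inverting it gave whole reads within 0.1 for 96.8% of values, which were the reads for edgeR and DESeq2. That adjustment is inferred from the values and not stated.

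Symbols came from GENCODE M21 by Ensembl identifier (13359 matched, 645 did not). A gene was tested if 3 or more libraries had a value of 10 or more (13058 genes, among them all 85 members, while 946 were not). The test was limma 3.58.1 (R 4.3.3), on log2(value + 1). The model had a mean per group, a variance trend and no covariate, with 8 residual and 10.7 prior degrees of freedom. Tests were two-sided, with a threshold of 0.05 after Benjamini-Hochberg adjustment. Alternatives were pseudocounts of 0.5 and 10, other filters (none, and 100), TMM, median-of-ratios, quantile and rRNA-free scaling, left-out libraries, a replicate block, quality weights, edgeR 4.0.16 and DESeq2 1.42.0.

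Genes named were members called in any comparison, the 5 highest and 5 lowest estimates of each comparison, the paralogs, the 5 highest and 5 lowest levels per kb, and Rpl22, Rpsa, Rplp0, Rplp1, Rplp2, Rps6 and Rps27a. Of each other list, called genes or else the 2 with the highest mean were named. Rps19, Rps14, Rpl30, the genes called by other tools and the genes whose promoters are printed were chosen after their values were seen. Members and lists were chosen with earlier results of these data known. Rpl37rt, Rps3a2 and Rps3a3 were placed outside the core after the table was seen. Some genes that the rule names are not reported here by name; they stay in all counts and medians, and 4 members are left out of the plots that name genes. Scripts were tested on simulated data.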

Additional observations from a re-analysis of the deposited data

How the results depend on the processing

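The number of members called in thymus (1, against 0.636% of all genes) became 4 with TMM rescaling (0.827%). It became 2 with median-of-ratios rescaling (0.682%) and 6 with DESeq2 (5.13%). It was 0 without control thymus library 2 and cKO thymus library 1 (0.179%), a setting chosen after seeing the data. With only the groups compared it was 0 (0.0269%), and with single libraries left out 0 to 1 (0.163 to 4.2%). Over both tissues (1, against 2.27%) it became 4 with TMM (2.59%), 2 with median of ratios (2.4%) and 3 with DESeq2 (6.27%). It was 0 without the 2 libraries under 5 M reads (0.739%), and 1 to 2 with single libraries left out (1.31 to 4.23%). In liver, in the difference of genotype effects and in both tissue comparisons it was 0 in all alternatives run (20, 27, 22 and 21). Shares of all genes called in these comparisons were, in the same order, 0.0715 to 4.75%, 0.00714 to 0.894%, 0.0701 to 3.89% and 0.0234 to 2.18%. Over all genes the thymus calls ranged from 3 with only the groups compared to 619 with DESeq2, and were 542 without control thymus library 3. The members' thymus median was −0.78 to −0.22 with single libraries left out and −0.46 without control thymus libraries 1 and 2. Without control thymus library 2 and cKO thymus library 1 it was 0.02, and the median of the difference was 0.01. Without mitochondrial rRNA the mean shares were 3.16% (control) and 2.27% (cKO) in thymus, 3.14% and 2.96% in liver, and 2.88% over all libraries. The direction of some uncalled estimates turned. In thymus these were Rpl27 (TMM −0.12, median of ratios −0.01, edgeR −0.17, DESeq2 −0.19, without control thymus libraries 1 and 2 −0.11, single libraries left out −0.54 to 0.69), Rpl35 (TMM −0.09, edgeR −0.04, DESeq2 −0.07, left out −0.27 to 0.72) and Rpl35a (TMM −0.15, median of ratios −0.04, left out −0.09 to 0.32). In liver it was Rps19bp1 (without the 2 shallow libraries −0.53, left out −0.08 to 1.19). Over both tissues with single libraries left out, Rpl35 ranged from −0.03 to 0.47 and Rpl7l1 from −0.20 to 0.91. In the difference of effects they were Rpl13a (TMM 0.10, left out −0.41 to 0.07), Rpl35a (TMM 0.02) and Rps12 (TMM 0.07, edgeR 0.37, DESeq2 0.39, left out −1.02 to 0.64). Between tissues they were Rps3a3 in control cells (quantile scaling −1.15), and in cKO cells Rps27rt (0.07 without the shallow libraries, left out −1.08 to 0.07) and Rps3a3 (0.03, left out −1.74 to 0.03). Without control thymus library 2 and cKO thymus library 1, thymus estimates of Pabpc1 (0.05), Polr1a (0.12), Rps27a (0.12) and Rps3 (0.02) turned, and Fau turned without control thymus library 1 (−0.05 to 1.31 with single libraries left out). With the replicate number as a block, 1 member was called in thymus (Rps16, limma adjusted p = 0.029) and 1 over both tissues (Rps16, limma adjusted p = 0.013). Of all genes, that setting called 0.62% and 2.32%. Same-numbered libraries correlated at −0.10 to 0.08 in their deviations from group means, so the numbers were not used as pairs. Where a value changed, the cause was not tested.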
